A study of Mus musculus with 12 samples.

Results

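The MS4A family genes described here are Ms4a4a, Ms4a4c, Ms4a6b, Ms4a6c, Ms4a6d and Ms4a7, which are 6 of the 48795 genes listed in the counts. They were measured in mouse bone marrow-derived macrophages (BMDMs), cells grown from bone marrow in culture with the growth factor M-CSF. The 6 genes were chosen by name because Ms4a4a had one of the larger differences between genotypes in these same libraries, so the genotype differences of the family are given as values without a test. WT cells came from mice labelled C57BL/6, which the methods of the study give as C57BL/6NJ, and Acod1-/- cells came from the line C57BL/6NJ-Acod1em1(IMPC)J/J, in which the gene for the itaconate-producing enzyme is disrupted in the whole animal. The mice were males of 7 to 11 weeks, and the cells were in culture for 8 to 10 days. Cells of each genotype received vehicle, particulate matter (PM, an urban dust) at 20 μg/cm² for 24 hours, or 4-octyl itaconate (OI, an itaconate derivative that crosses the cell membrane) at 0.25 mM for 2 hours before the same dose of PM. OI without PM was not among the groups. There were 2 libraries in each of the 6 groups, and because the labels do not say whether these came from separate animals, the p-values measure only the spread between these libraries, which may be technical.

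MS4A proteins cross the membrane several times. Several of them act beside other receptors of immune cells, and some have been described as chemoreceptors of olfactory neurons. The family includes Ms4a1, the B cell antigen CD20, and Ms4a2, a chain of the IgE receptor of mast cells and basophils, whereas several of its other genes are expressed mainly in macrophages and monocytes. Ms4a4a is known as a gene of macrophages exposed to IL-4 or glucocorticoid, and its protein associates with the β-glucan receptor Dectin-1. Ms4a7 is used as a marker of tissue and border macrophages of the brain, and the human MS4A locus is known for variants associated with Alzheimer's disease and with the level of soluble TREM2. In the mouse, the MS4A genes lie side by side, and the Ms4a4 and Ms4a6 groups arose by repeated duplication.

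The libraries held between 33616577 and 36817898 counts on genes, and 11228 genes passed the filter of a CPM (a count scaled to the size of its library) above 1.5 in at least 2 libraries. All 10 macrophage marker genes passed it, with Lyz2, Csf1r and Adgre1 among the most abundant, whereas none of the 8 T cell, 7 mast cell and basophil, 6 dendritic cell and 6 fibroblast markers passed it and 1 of 6 B cell markers did, Cd79b. Acod1 was lower in the Acod1-/- libraries without being absent, at 108 and 94.1 normalized CPM after PM against 181 and 170 in WT, and counts per gene cannot show which exons were read. Nnt, which is partly deleted in C57BL/6J but not in C57BL/6N mice and was singled out after its values were seen, was 1.95-fold higher in Acod1-/- than in WT cells with vehicle. The genotype therefore cannot be told apart from the strain background or from the animals used. The 2 WT libraries that received PM, and the 2 that received OI and PM, stood further apart than the others. In these groups the replicates differed by a chi-square per degree of freedom of 27.3 and 58.5, against 2.61 to 8.32 in the other 4. The difference of replicate 1 minus replicate 2 was related to gene length in them (Spearman's rho across genes 0.61 and 0.62). In the other groups rho was 0.29 for WT with vehicle, -0.08 for Acod1-/- with vehicle, -0.37 for Acod1-/- with PM and 0.31 for Acod1-/- with OI and PM. The main results that depend on 1 of the WT libraries with PM, or with OI and PM, are given with and without it or as a range.

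In GRCm38, the family members lie on chromosome 19 within a cluster of MS4A genes that runs from 10962293 to 11640851, over 678 kb. Ms4a7 (ENSMUSG00000024672, 11321039 to 11336146) and Ms4a6d (ENSMUSG00000024679, 11586604 to 11604849) are read from the minus strand. Ms4a4a (ENSMUSG00000101389, 11375523 to 11392790), Ms4a4c (ENSMUSG00000024675, 11404770 to 11427246), Ms4a6c (ENSMUSG00000079419, 11469366 to 11482192) and Ms4a6b (ENSMUSG00000024677, 11516512 to 11531256) lie between them on the plus strand. Promoter windows of 300 bases, from 250 bases before to 50 after the start of a RefSeq transcript (GRCm38.p6), were found for 5 of the 6 members, with 2 windows for Ms4a7 and none for Ms4a6d. The windows of Ms4a6c and Ms4a6b are shown because the levels of these neighbours followed each other most closely of all pairs of members. They were also the most alike in sequence, with 51.2% identity against 43.9 to 47.6% for the 14 other pairs of windows. Capitals mark the 3 runs of at least 12 bases that both windows share in the same order, 86 bases in all, of which the longest is 48 bases.
Ms4a6c, chr19:11469118-11469417, plus strand: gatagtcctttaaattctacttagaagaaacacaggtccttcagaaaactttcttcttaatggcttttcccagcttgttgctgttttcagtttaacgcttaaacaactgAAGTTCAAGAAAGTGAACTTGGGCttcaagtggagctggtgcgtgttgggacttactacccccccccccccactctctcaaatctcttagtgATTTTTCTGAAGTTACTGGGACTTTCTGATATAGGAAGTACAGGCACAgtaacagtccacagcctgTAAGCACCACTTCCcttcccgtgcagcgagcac
Ms4a6b, chr19:11518309-11518608, plus strand: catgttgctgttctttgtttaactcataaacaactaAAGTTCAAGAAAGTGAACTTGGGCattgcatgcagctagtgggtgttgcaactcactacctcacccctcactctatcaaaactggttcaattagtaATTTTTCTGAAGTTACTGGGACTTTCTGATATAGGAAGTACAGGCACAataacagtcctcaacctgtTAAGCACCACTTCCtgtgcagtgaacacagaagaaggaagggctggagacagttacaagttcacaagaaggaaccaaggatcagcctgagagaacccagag
The windows were also searched on both strands for 6 short motifs, those of the interferon response, AP-1 (TGANTCA), PU.1 (GAGGAAG), the antioxidant response, STAT6 and the glucocorticoid receptor. The window of Ms4a6b held 1 match to the palindromic STAT6 motif, which 6.95% of the 32851 RefSeq promoters of this length hold, and 1 to the glucocorticoid receptor motif TGTTCT, which 19% hold. The window of Ms4a6c held no match to any of the 6 motifs. A STAT6 match was also found in a window of Ms4a7, matches to AP-1 and to TGTTCT in its other window, a match to TGTTCT in the window of Ms4a4c, and a match to the antioxidant response core TGACNNNGC, present in 12.4% of promoters, in that of Ms4a4a. None of the 6 windows held the interferon response core, which 3.44% of promoters hold. A match describes letters in the window and not a site in use.

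Reads of 50 bases cannot always be assigned to a single gene of a duplicated family. Of all 50-base stretches in the annotated transcripts of Ms4a4a and of Ms4a7, 0% also occurred in another MS4A gene, so these members share no such stretch with the rest of the family. The share was 8.19% for Ms4a4c, 5.85% for Ms4a6c, 3.57% for Ms4a6b and 2.31% for Ms4a6d. With up to 2 mismatches it rose to 28.0% for Ms4a4c, 26.5% for Ms4a6c, 13.5% for Ms4a6b and 7.80% for Ms4a6d. The coding sequence of Ms4a4c was 91.8% identical to that of Ms4a4b, a gene with at most 16 counts in any library, and those of Ms4a6b and Ms4a6c were 73.9% identical. Exons of Ms4a6c overlap those of the transcript BE692007 on the opposite strand over 1088 bases, so that with this transcript included 51.4% of its 50-base stretches also occurred in another gene. BE692007 had 355 counts over all libraries against 25867 for Ms4a6c, but where reads over both genes were left uncounted, the level of Ms4a6c would be too low by an amount the counts do not show. Whether the authors counted reads by strand, or counted reads that map to several places, is not given in the sources used here, so the values of Ms4a4c, Ms4a6b, Ms4a6c and Ms4a6d carry that uncertainty.

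The members differed widely in abundance, and Ms4a6d and Ms4a7 made up most of the family's transcripts. Levels between genes are compared as normalized CPM per kb of exonic sequence. In WT cells with vehicle, the level was 82.4 ± 0.484 for Ms4a6d, 47.5 ± 2.69 for Ms4a7 and 31.8 ± 1.99 for Ms4a6c (SD, n = 2). It was 6.4 ± 1.35 for Ms4a4a, 4.88 ± 0.0542 for Ms4a6b and 0.612 ± 0.105 for Ms4a4c (SD, n = 2). The order Ms4a6d, Ms4a7, Ms4a6c held in all 6 groups with no overlap between the libraries of neighbours in that order, although the place of Ms4a6c could be higher if reads over its overlap with BE692007 were left uncounted. Ms4a4c was the least abundant member in all 6 groups, although its libraries overlapped those of Ms4a4a in WT cells with OI and PM. Ms4a4a changed places with Ms4a6b between treatments. With vehicle it lay above Ms4a6b in both genotypes, at 20.5 ± 1.13 against 8.79 ± 0.370 per kb in Acod1-/- cells (SD, n = 2), and with OI and PM below it in both, at 0.482 ± 0.281 against 1.57 ± 0.0898 in WT cells (SD, n = 2). With PM it lay below in WT cells, at 3.40 ± 0.852 against 6.06 ± 0.523 (SD, n = 2), while the libraries of these genes overlapped in Acod1-/- cells. Together, Ms4a6d and Ms4a7 held 73.6 to 79.4% of the summed CPM of the 6 members in the 4 vehicle libraries, 82.3 to 87.1% in the 4 PM libraries and 93.4 to 96.5% in the 4 libraries with OI and PM.

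**Figure D1:**
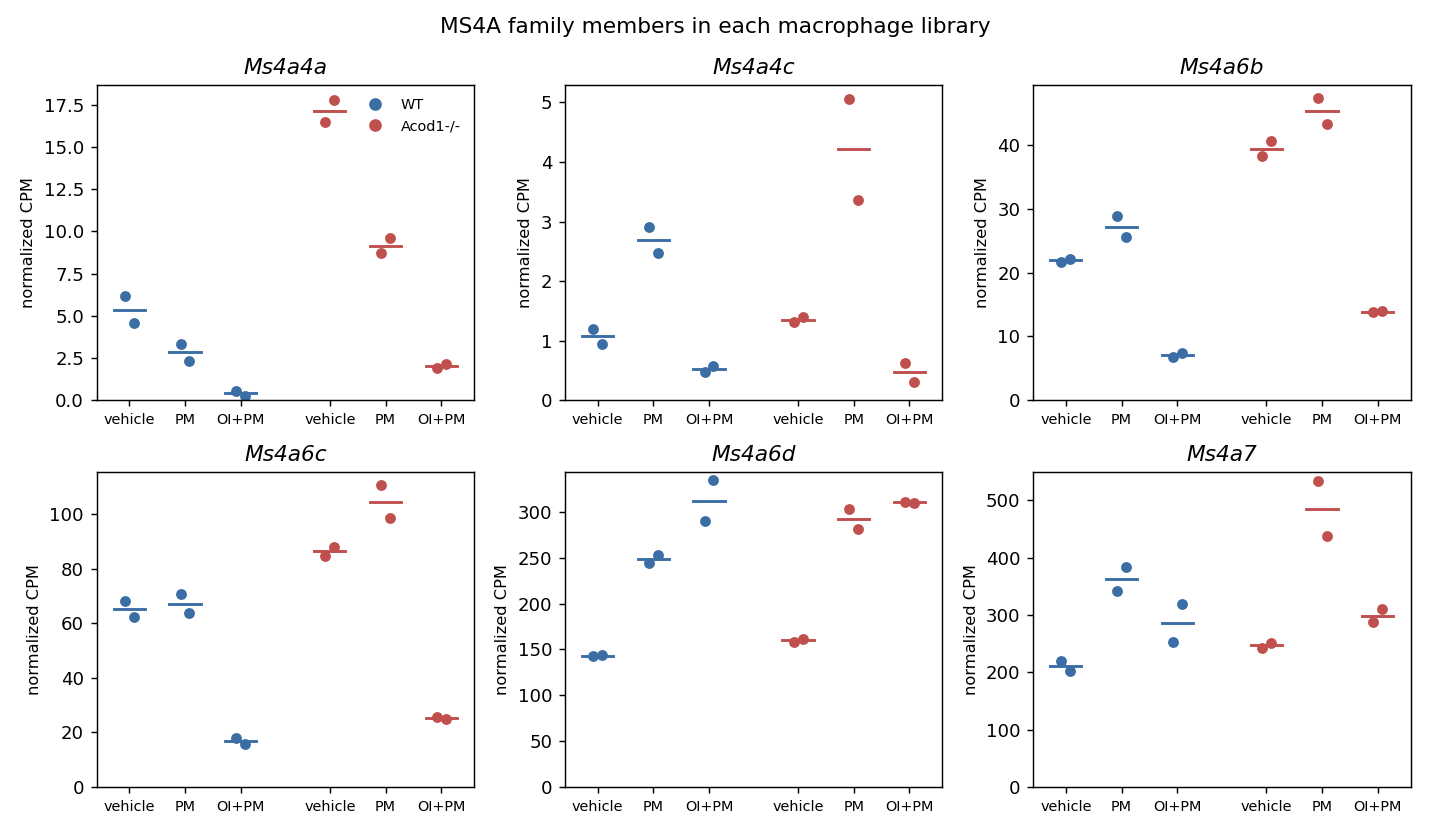
Normalized CPM (vertical axes, linear from 0, a scale for each gene) of the 6 MS4A members in each library, with points for the 2 libraries of a group and a bar for their mean, WT in blue and Acod1-/- in red. Ms4a4a, Ms4a4c, Ms4a6b and Ms4a6c are at their lowest with OI and PM in both genotypes, whereas Ms4a6d stays at 291 to 334 normalized CPM in those 4 libraries.

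To ask how PM alone acts on the family, PM-treated cells were compared with vehicle-treated cells of the same genotype. Ms4a4c, Ms4a6d and Ms4a7 rose in both genotypes and Ms4a4a fell in both. The filter kept Ms4a4c only through its 4 PM libraries, so that a high level with PM was a condition of its being tested, and the counts and medians are also given without it. At an adjusted p of 0.05 or less, 4 members rose and 1 fell in WT cells, where 12.6% of all genes tested rose and 12.2% fell (24.8% called). Of the members in Acod1-/- cells, 3 rose and 1 fell, where 12% of genes rose and 11.9% fell (23.9% called). Of the 5 members without Ms4a4c, 3 rose and 1 fell in WT and 2 rose and 1 fell in Acod1-/- cells, and none passed 2-fold, where 3.02% of genes in WT and 3.19% in Acod1-/- cells rose by at least 2-fold with such a p. Their median log2 fold change was 0.31 in WT and 0.28 in Acod1-/- cells (0.55 and 0.57 with Ms4a4c), beside 0.01 and 0.00 over all genes tested.

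Ms4a4a stood at 6.15 and 4.56 normalized CPM in WT cells with vehicle and at 3.34 and 2.33 with PM. The fall was -0.91 ± 0.217 on the log2 scale (SE, adjusted p = 0.0141). Here and throughout, adjusted p-values come from the quasi-likelihood test of edgeR with Benjamini-Hochberg adjustment over the 11228 genes. Among Acod1-/- libraries it went from 16.5 and 17.8 to 8.70 and 9.61 (log2 fold change -0.90 ± 0.178, SE, adjusted p = 0.00491). The vehicle and PM libraries did not overlap in either genotype, and every Acod1-/- library with PM remained above every WT library with vehicle. Groups of 2 libraries can separate by chance, and the share of all genes tested that did so was not counted. A lack of overlap, here and below, is therefore a description. The call in WT cells was lost without replicate 1 of the vehicle libraries (adjusted p = 0.127) or replicate 2 of the PM libraries (adjusted p = 0.113), and that in Acod1-/- cells without replicate 1 of the PM libraries (adjusted p = 0.0585). Over all alternatives, the adjusted p ranged from 0.000505 to 0.127 in WT and from 1.01e-05 to 0.0585 in Acod1-/- cells.

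Ms4a4c, whose protein is less well characterized and whose reads are the most exposed to a paralogue, moved the other way. It stood at 1.2 and 0.942 normalized CPM in WT cells with vehicle and at 2.91 and 2.48 with PM (log2 fold change 1.33 ± 0.268, SE, adjusted p = 0.00613). The Acod1-/- libraries stood at 1.31 and 1.39 with vehicle and at 5.06 and 3.37 with PM (log2 fold change 1.64 ± 0.247, SE, adjusted p = 0.000965). With a filter that does not depend on the group, of at least 10 counts over all libraries, the adjusted p was 0.00495 in WT and 0.000559 in Acod1-/- cells. All other members were above the filter in at least 10 libraries. In WT cells its call was lost without replicate 2 of the vehicle libraries (adjusted p = 0.0620, with a range of 0.000562 to 0.0620 over the alternatives).

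Ms4a6d and Ms4a7, the abundant members, rose by less than 2-fold. Ms4a6d stood at 142 and 144 normalized CPM in WT cells with vehicle and at 245 and 253 with PM (log2 fold change 0.80 ± 0.0722, SE, adjusted p = 3.86e-05). Its level in Acod1-/- cells was 158 and 161 with vehicle and 303 and 281 with PM (log2 fold change 0.87 ± 0.0722, SE, adjusted p = 1.79e-05). These calls held in all 14 alternatives of each comparison that gave a value, with adjusted p of at most 0.00123 and 0.000694. Ms4a7 went from 219.8 and 203 to 342 and 384 in WT cells (log2 fold change 0.78 ± 0.124, SE, adjusted p = 0.00156) and from 242 and 252 to 534 and 437 in Acod1-/- cells (log2 fold change 0.98 ± 0.125, SE, adjusted p = 0.000336). The vehicle and PM libraries of both genes did not overlap in either genotype.

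Ms4a6b and Ms4a6c changed little with PM. Ms4a6b stood at 21.7 and 22.1 normalized CPM with vehicle and at 28.9 and 25.5 with PM in WT cells (log2 fold change 0.31 ± 0.0840, SE, adjusted p = 0.0242), a call that was lost without either vehicle library or without replicate 1 of the PM libraries (adjusted p = 0.0929 to 0.137), with total count normalization (adjusted p = 0.0661) and in a fit of the compared groups alone (adjusted p = 0.0555). In Acod1-/- cells it stood at 38.3 and 40.6 with vehicle and at 47.4 and 43.3 with PM (log2 fold change 0.20 ± 0.0816, SE, adjusted p = 0.102), a value called in the fit of the compared groups alone (adjusted p = 0.0172). Ms4a6c stood at 68.1 and 62.3 with vehicle and at 70.6 and 63.8 with PM in WT cells, where the libraries overlapped (log2 fold change 0.04 ± 0.0911, SE, adjusted p = 0.733). In Acod1-/- cells it stood at 84.7 and 88.1 with vehicle and at 111 and 98.4 with PM (log2 fold change 0.28 ± 0.0905, SE, adjusted p = 0.0517). That value passed the threshold with the replicate block (adjusted p = 0.0252), in DESeq2 (adjusted p = 0.0423) and in a fit of the compared groups alone (adjusted p = 0.00315), but with correction for exonic length it was 0.14 (adjusted p = 0.458), with that correction and the block 0.13 (adjusted p = 0.34), and with total count normalization 0.20 (adjusted p = 0.179).

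To ask what OI adds, cells with OI and PM were compared with cells with PM of the same genotype. The PM libraries serve in this comparison and in that of PM against vehicle, so the effects of each gene are given side by side and not as independent results. Ms4a4a, Ms4a4c, Ms4a6b and Ms4a6c fell by 3.27-fold or more in both genotypes, Ms4a7 fell by less, and Ms4a6d did not fall. In WT cells, 5 members fell and 1 rose, where 22.6% of all genes tested fell and 21.3% rose (43.9% called). Of the members in Acod1-/- cells, 5 fell and none rose, where 20.6% of genes fell and 13.9% rose (34.6% called). Of these, Ms4a4c was again tested only because its PM libraries passed the filter. The first 4 were DEGs, genes changed by at least 2-fold at an adjusted p of 0.05 or less, in both genotypes, where 8.49% of genes in WT and 7.98% in Acod1-/- cells were DEGs with lower levels. Without Ms4a4c, 3 of 5 members were such DEGs in both genotypes, with a median log2 fold change of -1.95 in WT and -1.71 in Acod1-/- cells, beside 0.02 and 0.00 over all genes tested. In bulk RNA, fewer cells that express a gene and less of its RNA per cell cannot be told apart.

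Ms4a4a was reduced to 0.569 and 0.237 normalized CPM in WT cells with OI and PM, which rest on 19 and 7 reads, from 3.34 and 2.33 with PM. The fold change was 6.84-fold lower (log2 fold change -2.77 ± 0.344, SE, adjusted p = 0.000117). Among Acod1-/- libraries it went from 8.70 and 9.61 to 1.92 and 2.13 (log2 fold change -2.18 ± 0.222, SE, adjusted p = 3.16e-05). The libraries with OI and PM lay below all others of their genotype. The WT value depends on the library, at -3.56 to -2.31 over the alternatives, with an adjusted p of at most 0.00915.

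Ms4a4c fell to 0.479 and 0.575 normalized CPM in WT cells with OI and PM (log2 fold change -2.35 ± 0.320, SE, adjusted p = 0.000222) and to 0.631 and 0.308 in Acod1-/- cells (log2 fold change -3.15 ± 0.305, SE, adjusted p = 2.17e-05), below the vehicle libraries of the same genotype. The Acod1-/- value was -3.76 without replicate 1 and -2.73 without replicate 2 of the libraries with OI and PM. These levels rest on 10 to 21 reads per library. With the filter of at least 10 counts over all libraries, the adjusted p was 0.000115 in WT and 7.25e-06 in Acod1-/- cells.

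Ms4a6b fell from 28.9 and 25.5 to 6.74 and 7.31 normalized CPM in WT cells (log2 fold change -1.95 ± 0.0927, SE, adjusted p = 1.07e-07) and from 47.4 and 43.3 to 13.8 and 14.0 in Acod1-/- cells (log2 fold change -1.71 ± 0.0867, SE, adjusted p = 1.72e-07). Ms4a6c fell from 70.6 and 63.8 to 18 and 15.8 in WT cells (log2 fold change -1.99 ± 0.0976, SE, adjusted p = 1.34e-07) and from 111 and 98.4 to 25.8 and 24.7 in Acod1-/- cells (log2 fold change -2.05 ± 0.0957, SE, adjusted p = 9.65e-08). Their replicates lay close together, and no alternative moved either value beyond -2.13 to -1.64.

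Ms4a6d did not follow Ms4a6b, although their coding sequences are 79.9% identical over the alignment and 81.1% over the shorter sequence. For Ms4a6b and Ms4a6c these shares are 73.9% and 84.1%. It stood at 291 and 334 normalized CPM with OI and PM in WT cells against 245 and 253 with PM (log2 fold change 0.33 ± 0.0716, SE, adjusted p = 0.00450), a rise that was not called in a fit of the compared groups alone (adjusted p = 0.134, with a range of 0.000151 to 0.134). In Acod1-/- cells it stood at 311 and 309.6 against 303 and 281 (log2 fold change 0.09 ± 0.0715, SE, adjusted p = 0.389). Ms4a7 stood at 252 and 319 against 342 and 384 in WT cells (log2 fold change -0.35 ± 0.124, SE, adjusted p = 0.0454). That call was lost without replicate 2 of the PM libraries (adjusted p = 0.181), without replicate 1 of the libraries with OI and PM (adjusted p = 0.176) and in a fit of the compared groups alone (adjusted p = 0.154). The level of Ms4a7 in Acod1-/- cells was 287 and 310.3 against 534 and 437 (log2 fold change -0.70 ± 0.124, SE, adjusted p = 0.00146), a call that held in all 14 alternatives with an adjusted p of at most 0.02.

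**Figure D2:**
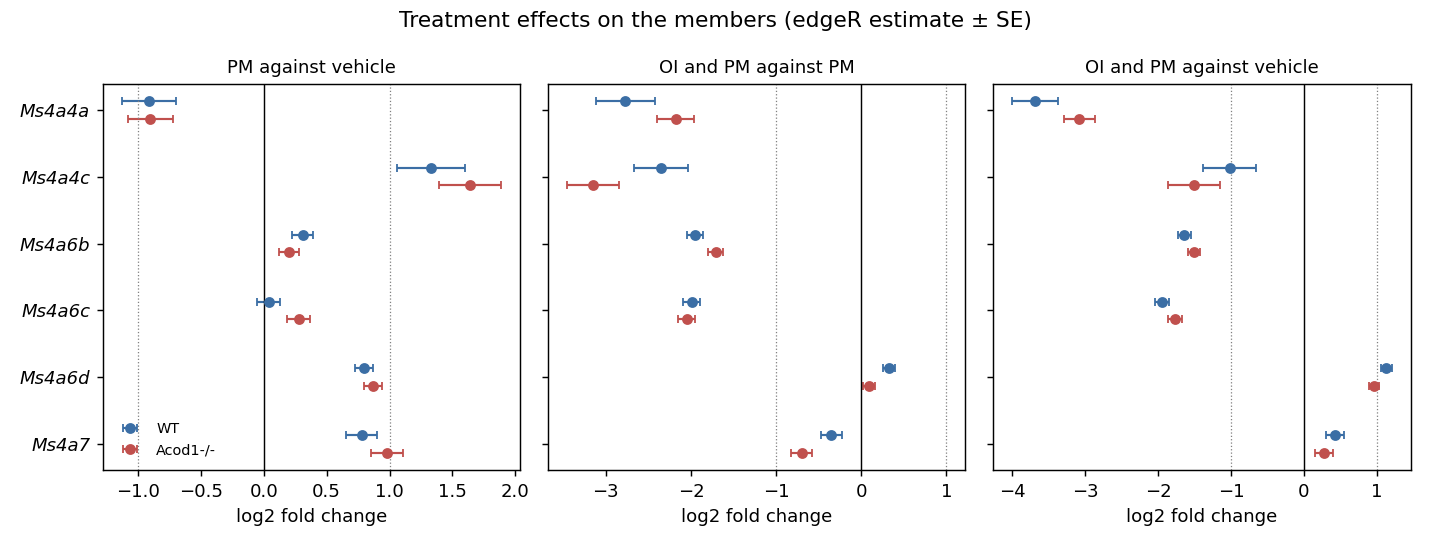
Log2 fold changes (horizontal axes, points with bars of 1 SE) of the 6 members for PM against vehicle, OI and PM against PM, and OI and PM against vehicle, with WT in blue, Acod1-/- in red and dotted lines at a 2-fold change. Ms4a4a lies to the left of 0 in all 3 panels, and Ms4a6d is the only member not to the left of 0 in any panel.

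Against vehicle, cells with OI and PM held less Ms4a4a, Ms4a6b, Ms4a6c and Ms4a4c and more Ms4a6d. In WT cells 2 members rose and 4 fell, where 33.6% of genes rose and 31.9% fell (65.5% called). Of the members in Acod1-/- cells, 1 rose and 4 fell, where 22.7% of genes rose and 26.7% fell (49.4% called). Ms4a4a had the largest size of change among the members, at 12.9-fold lower in WT (log2 fold change -3.69 ± 0.313, SE, adjusted p = 5.39e-06, at -4.47 without replicate 1 and -3.22 without replicate 2 of the WT libraries with OI and PM) and 8.45-fold lower in Acod1-/- cells (log2 fold change -3.08 ± 0.215, SE, adjusted p = 1.36e-06). Ms4a6d was 2.19-fold higher in WT (log2 fold change 1.13 ± 0.0726, SE, adjusted p = 6.99e-07) and 1.94-fold higher in Acod1-/- cells (log2 fold change 0.96 ± 0.0723, SE, adjusted p = 2.52e-06). Ms4a6c had a log2 fold change of -1.95 in WT and -1.77 in Acod1-/- cells, and Ms4a6b of -1.64 and -1.51. Ms4a4c had one of -1.02 in WT cells (adjusted p = 0.0323), a call lost without replicate 1 of the vehicle libraries (adjusted p = 0.145) or either library with OI and PM (0.118 and 0.0652). In Acod1-/- cells it was -1.51 (adjusted p = 0.00620), a call lost without replicate 2 of the libraries with OI and PM (-1.09). Over the alternatives, this value ranged from -2.12 to -1.09. Ms4a7 had one of 0.43 in WT (adjusted p = 0.0115, but 0.11 with total count normalization, 0.076 without replicate 2 of the vehicle libraries and 0.075 without replicate 2 of those with OI and PM) and 0.28 in Acod1-/- cells (adjusted p = 0.0902, but 7.58e-08 in a fit of the compared groups alone and 0.0317 with the replicate block after the numbers of the Acod1-/- libraries with PM were exchanged).

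The genotype comparison is the one by which the family was chosen, and its values are a description. Ms4a4a was higher in every Acod1-/- library than in every WT library of the same treatment. It was 3.20-fold higher with vehicle (16.5 and 17.8 against 6.15 and 4.56 normalized CPM), 3.22-fold higher with PM (8.70 and 9.61 against 3.34 and 2.33) and 4.88-fold higher with OI and PM (1.92 and 2.13 against 0.569 and 0.237). The last value, a log2 difference of 2.29, was 3.08 without replicate 1 and 1.82 without replicate 2 of the WT libraries with OI and PM. That with PM, 1.69, was 1.97 without replicate 1 and 1.45 without replicate 2 of the WT libraries with PM. Ms4a4a was the only member past 2-fold in any treatment, where 0.321% of genes tested were at least 2-fold higher in Acod1-/- cells with vehicle, 0.285% with PM and 0.668% with OI and PM. With vehicle it ranked 13 of 11228 genes from the highest difference. Ms4a6b was 1.80-fold higher with vehicle, 1.67-fold higher with PM and 1.98-fold higher with OI and PM, also with no overlap between the genotypes in any treatment. How many of all genes tested showed no overlap between the genotypes was not counted. The last of these values reached 2-fold under 5 alternatives that kept all libraries, such as correction for exonic length. The log2 difference of Ms4a6b with PM, 0.74, was 0.83 without replicate 1 and 0.65 without replicate 2 of the WT libraries with PM. Ms4a6c was 1.33-fold, 1.56-fold and 1.49-fold higher in the same order of treatments, again without overlap. Its log2 difference with OI and PM, 0.58, was 0.68 without replicate 1 of the WT libraries with OI and PM.

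The differences of the other members were smaller. Ms4a4c was 1.26-fold higher with vehicle and 1.56-fold higher with PM (a log2 difference of 0.64, which was 0.32 without replicate 1 and 0.91 without replicate 2 of the Acod1-/- libraries with PM), while with OI and PM the genotypes overlapped (0.631 and 0.308 normalized CPM in Acod1-/- against 0.479 and 0.575 in WT cells). Ms4a6d was 1.12-fold and 1.17-fold higher with vehicle and with PM, and Ms4a7 1.17-fold and 1.34-fold, with no overlap in either treatment. With OI and PM both overlapped, at log2 differences of -0.01 for Ms4a6d and 0.06 for Ms4a7. All 6 members had values above 0 with vehicle and with PM, where 53.3% and 50% of genes tested did, and 4 of 6 did with OI and PM, where 45.3% of genes did. These counts include Ms4a4a, whose difference led to the choice of the family. Besides Ms4a4a, all other members had values above 0 with vehicle and with PM. With OI and PM, Ms4a6b, Ms4a6c and Ms4a7 did, whereas Ms4a4c and Ms4a6d did not.

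**Figure D3:**
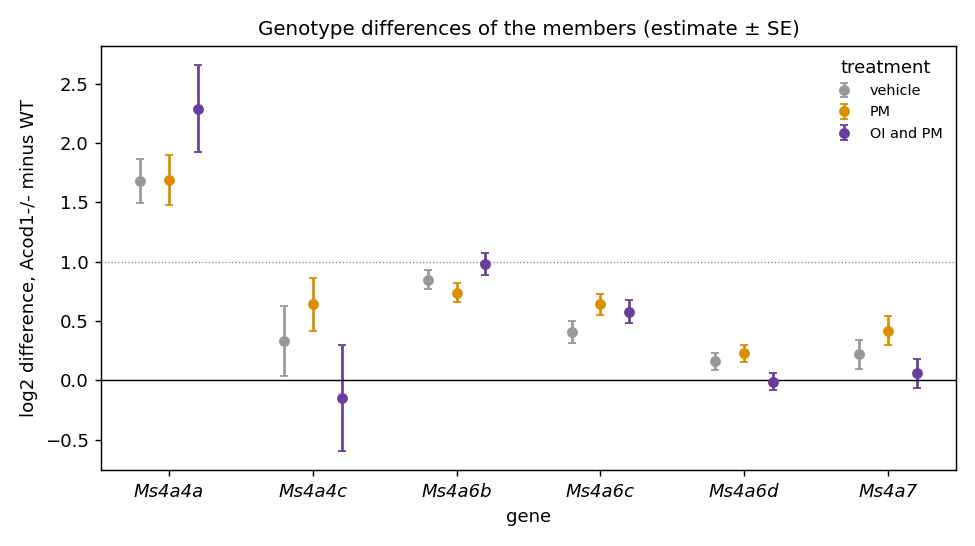
Log2 difference between Acod1-/- and WT cells (vertical axis, points with bars of 1 SE) for each member with vehicle, PM, or OI and PM, with a dotted line at a 2-fold difference. Ms4a4a lies at 1.68 to 2.29, Ms4a6b at 0.74 to 0.98 and the others below 0.7.

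Whether the genotypes responded differently to PM or to OI was tested as an interaction, for every member but Ms4a4a, whose interaction is given as a value. No member was called. In the main edgeR fit, 0 of 11228 genes (0% called) were called in either interaction, with 273 genes at an unadjusted p under 0.05 for PM and 717 for OI. DESeq2 called 3 genes for PM and 34 for OI. With correction for exonic length 0 and 21 genes were called, and with that correction and the replicate block 0 and 15. For PM, the differences of the log2 effects (Acod1-/- minus WT) were 0.31 for Ms4a4c (95% interval -0.53 to 1.14), 0.23 for Ms4a6c (-0.05 to 0.52), 0.20 for Ms4a7 (-0.19 to 0.59), 0.07 for Ms4a6d (-0.16 to 0.30) and -0.11 for Ms4a6b (-0.37 to 0.15). For OI, they were -0.79 for Ms4a4c (-1.91 to 0.33), -0.36 for Ms4a7 (-0.75 to 0.03), -0.24 for Ms4a6d (-0.47 to -0.01), -0.06 for Ms4a6c (-0.36 to 0.24) and 0.25 for Ms4a6b (-0.03 to 0.53), with adjusted p of 0.759 or more. Intervals of this width do not show that the genotypes responded alike. Over the alternatives, the difference of Ms4a4c ranged from -0.02 to 0.57 for PM and from -1.40 to -0.38 for OI. For Ms4a4a the differences were 0.01 for PM, or 0.29 and -0.23 without replicate 1 and replicate 2 of the WT libraries with PM, and 0.60 for OI, or 1.39 and 0.14 without replicate 1 and replicate 2 of the WT libraries with OI and PM. Without replicate 1 of the WT libraries with OI and PM, Ms4a6d was called in the OI interaction (-0.34, adjusted p = 0.0468, with a range of 0.0468 to 1.0 over the alternatives), as 1 of 525 genes.

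The shape of each member's profile over the 12 libraries was compared as the root mean square (RMS) difference of log2 normalized CPM, each gene centred on its own mean. Among the 15 pairs of members, Ms4a6b and Ms4a6c were the most alike (0.223), followed by Ms4a6d and Ms4a7 (0.347), and Ms4a4a and Ms4a6d were the least alike (2.04). Outside the family, the genes with the smallest RMS difference to Ms4a4a were Sult1a1 (0.506), Adam19 (0.567) and Gm13710 (0.654). For Ms4a4c they were Cd101 (0.268), Ifi211 (0.305) and Xaf1 (0.318). Gpr85 (0.216), Ssc5d (0.220) and Timp2 (0.246) were nearest to Ms4a6b, and Gpr65 (0.165), Ssc5d (0.175) and Clec12a (0.202) to Ms4a6c, so that the scavenger receptor gene Ssc5d stood near both. Ms4a6d had the closest neighbours, in the transcription factor gene Tfec (0.0804), Lmo4 (0.0972) and Tapbpl (0.100). Those of Ms4a7 were Tapbp (0.111) and B2m (0.134), which serve antigen presentation by MHC class I, and H2-T22 (0.134). With a prior count of 0.5 in place of 2, 17 of these 18 were again among the nearest 3, and Adam19 was not. These likenesses come from the same 12 libraries and are a description.

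Most other genes of the family had few or no counts, Ms4a14 being an exception with 12432. Of the 18 listed besides the members, 12 had at most 10 counts over all libraries and 6 of those had none. Ms4a1 had 8 counts in all, Ms4a3 had 5 and Ms4a2 none. Only Ms4a14, Tmem176a and Tmem176b passed the filter. Ms4a14, which lies next to Ms4a7, stood at 30.9 and 26.9 normalized CPM in WT cells with vehicle, 38.0 and 29.2 with PM, and 18.5 and 13.9 with OI and PM. Its fall with OI was 2.07-fold in WT (log2 fold change -1.05 ± 0.164, SE, adjusted p = 0.000582) and 2.25-fold in Acod1-/- cells (log2 fold change -1.17 ± 0.162, SE, adjusted p = 0.000274), while its change with PM was not called (adjusted p = 0.312 and 0.204). Tmem176a and Tmem176b, distant relatives on chromosome 6 that encode cation channels of intracellular membranes, overlap each other. Tmem176a passed the filter through its 4 PM libraries and 1 Acod1-/- library with vehicle, so that its rise with PM was a condition of its being tested. Tmem176b stood at 3.02 and 3.39 with vehicle and at 7.17 and 6.95 with PM in WT cells (log2 fold change 1.14 ± 0.155, SE, adjusted p = 0.000558), and at 0.629 and 0.406 with OI and PM (log2 fold change -3.74 ± 0.216, SE, adjusted p = 4.41e-07). Its log2 fold changes in Acod1-/- cells were 1.80 with PM and -5.16 with OI.

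The 9 tested genes within 250 kb of either end of the MS4A cluster had a median log2 fold change with OI of 0.06 in WT and -0.02 in Acod1-/- cells, against 0.02 and 0.00 over all genes tested. Of these 9, 1 rose and 1 fell in WT cells, and 1 rose and 3 fell in Acod1-/- cells, where 22.6% of all genes fell in WT and 20.6% in Acod1-/- cells. AW112010, a transcript of immune cells, was the only DEG among them, at -2.09 in WT and -2.51 in Acod1-/- cells.

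**Figure D4:**
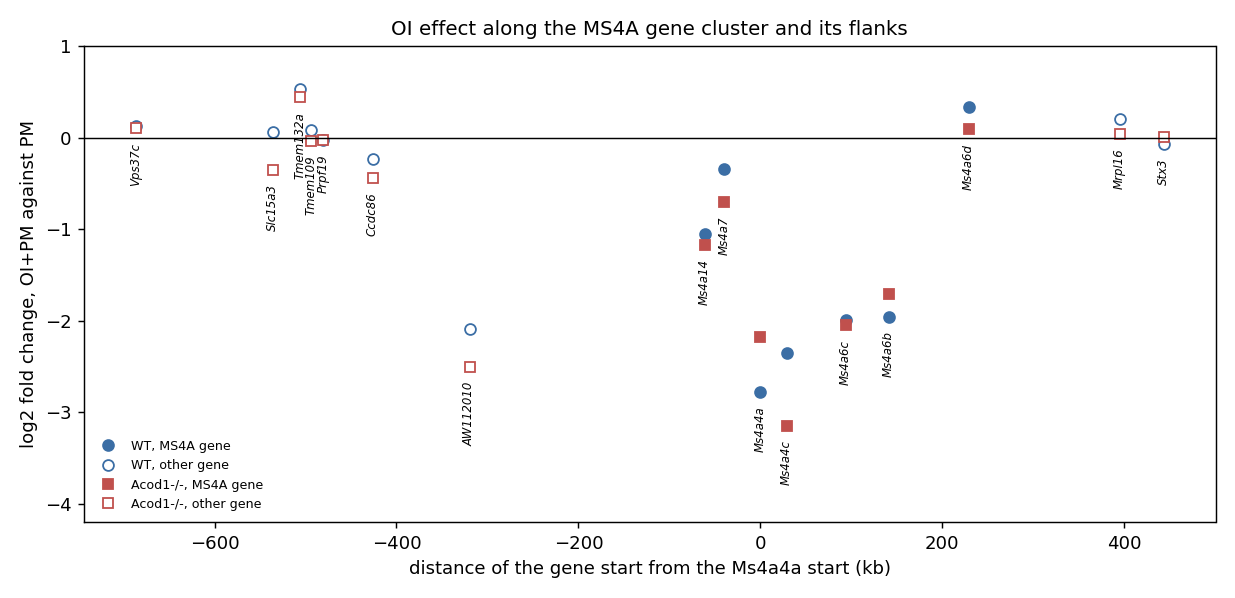
Log2 fold change for OI and PM against PM (vertical axis) of the tested MS4A genes (filled) and of the 9 tested genes within 250 kb of the cluster (open), against the distance of each gene's start from that of Ms4a4a in kb (horizontal axis). Among the tested genes, Ms4a4a, Ms4a4c, Ms4a6c and Ms4a6b lie next to each other between -3.15 and -1.71, with Ms4a7 at -0.35 and -0.70 and Ms4a6d at 0.33 and 0.09 on either side of them. Ms4a14, beyond Ms4a7, lies at -1.05 and -1.17.

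Of 12 listed partners, among them Dectin-1 (Clec7a), Trem2 and its adaptor Tyrobp, and kinases of the Src family, 11 were tested. With PM, 2 rose and 1 fell in WT and 3 rose and 1 fell in Acod1-/- cells, where 24.8% and 23.9% of all genes were called. Src was among those that rose (log2 fold change 0.91 and 1.29) and Fyn fell (-0.48 and -0.65). With OI, 2 rose and 6 fell in WT and 1 rose and 5 fell in Acod1-/- cells, where 43.9% and 34.6% of all genes were called, and the list's median was -0.24 in both, beside 0.02 and 0.00 over all genes. Clec7a rose with OI (log2 fold change 1.37 ± 0.0586 in WT, SE, adjusted p = 5.23e-08, and 1.36 ± 0.0586 in Acod1-/- cells, adjusted p = 5.60e-08), opposite to Ms4a4a. Src fell (-1.09 and -1.15).

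Genes associated with IL-4 or glucocorticoid exposure of macrophages fell with OI, as did interferon-stimulated genes. Of 16 genes listed for the former, 12 were tested. With PM, 2 rose and 7 fell in WT and 2 rose and 8 fell in Acod1-/- cells, and with OI 1 rose and 11 fell in WT and 10 fell in Acod1-/- cells. With PM 12.2% and 11.9% of all genes fell, and with OI 22.6% and 20.6%. The list's medians with OI were -1.98 and -1.57, beside 0.02 and 0.00 over all genes. In WT cells the OI effect was -3.02 for F13a1, -2.09 for Stab1 and -1.55 for Folr2. Of 20 interferon-stimulated genes 19 were tested. All 19 rose with PM in both genotypes, with medians of 2.37 in WT and 2.36 in Acod1-/- cells, where 12.6% and 12% of all genes rose. All 19 fell with OI, with medians of -3.08 and -3.19. Among the members other than Ms4a4c, which was tested only through its PM libraries, Ms4a7 rose and fell in this order with smaller changes and, in WT cells, the call with OI that single libraries decided, and Ms4a6b did so in WT cells, with the call with PM that did not hold under several alternatives. In Acod1-/- against WT cells with vehicle, the medians were 0.01 for the first list and 0.24 for the second, against 0.01 over all genes.

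The summed levels of markers of other cells differed between the treatments as well. The summed level of 9 neutrophil markers, mostly S100a8, was 6.57 to 7.46 normalized CPM in the vehicle libraries, 13.2 to 20.3 with PM and 29.6 to 61.0 with OI and PM, while Ly6g had at most 1 count. Of the 3 tested, S100a8 rose with OI (log2 fold change 1.82 in WT and 1.33 in Acod1-/- cells), whereas S100a9 (-1.93 and -1.66) and Ngp (-3.12 and -1.90) fell. That of 5 monocyte markers, mostly Cx3cr1 and Ccr2, was 35.1 to 39.6 in WT and 22.6 to 23.0 in Acod1-/- cells with vehicle, 16.4 to 23.3 with PM and 2.33 to 3.70 with OI and PM. The macrophage marker Csf1r stood at 1248 and 1249 with OI and PM in the 2 genotypes. The summed level of 6 B cell markers was 2.51 to 4.04 in the libraries with vehicle or PM and 0.862 to 1.23 with OI and PM, and Cd79b, the 1 tested, had a log2 fold change with OI of -1.60 in WT and -1.49 in Acod1-/- cells, both called. The part of these differences in the results on the MS4A members was not tested.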

How the data were processed

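RNA from BMDMs was measured by sequencing in 12 libraries, 2 in each of 6 groups taken from the labels. Raw read counts for each gene were deposited, which the authors made from single-end reads of 50 bases with STAR 2.5.3a on GRCm38 and featureCounts. The annotation release and the handling of strand and of multiply mapped reads are not given in the sources used here, and 0 columns of values were left unused.

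A quasi-likelihood model with 1 mean per group and no replicate block was fitted to TMM-scaled counts with edgeR 4.0.16 (R 4.3.3), with Benjamini-Hochberg adjustment of p-values over 11228 genes. Standard errors are those implied by the F statistic of each log2 fold change, and 95% intervals use the t quantile of that fit. Normalized CPM are TMM-scaled, and an SD of 2 libraries is itself imprecise. Positions and lengths came from GENCODE M21 and promoters from RefSeq. The tests were tried on simulated data with known changes. In that simulation a gene had the same spread in all libraries and gene length had no effect. It therefore cannot show how the tests behave with the unequal replicate spread of these groups.

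The members and gene lists were chosen with earlier results of these data known. Named were the members, the other family genes, up to 4 genes of each list with the smallest p, the 3 genes nearest in profile to each member, Acod1 as a check of the labels, and Nnt, Lyz2 and other markers for their values. Some genes that this rule names are not reported here. Alternatives were DESeq2 1.42.0, RLE and total count normalization, 2 other filters on low counts, the compared groups alone, a replicate block, correction for exonic length by a lowess curve with a span of 0.3, that correction with the block, a 2-fold threshold, and leaving out each library in turn, in which case the lone library is assumed to vary like the other groups. Same-numbered libraries did not deviate together in all pairs of groups, so the numbers were not taken to pair the libraries.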

Additional observations from a re-analysis of the deposited data

How the results depend on the processing

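No called value of a member changed sign under any alternative. Uncalled values near 0 did, such as Ms4a6c with PM in WT (-0.14 to 0.11) and the genotype differences with OI and PM of Ms4a4c (-0.76 to 0.27), Ms4a6d (-0.11 to 0.16) and Ms4a7 (-0.10 to 0.24). Asking for a CPM above 1.5 in each of the 12 libraries removed Ms4a4a and Ms4a4c and left 3 members called with PM in WT, 2 with PM in Acod1-/- cells, 3 with OI in Acod1-/- cells and 3 with OI and PM against vehicle in Acod1-/- cells, in place of 5, 4, 5 and 5 (22.4, 21.6, 31.4 and 46.4% of the 10031 genes then tested were called), and 0 members past 2-fold between genotypes with vehicle, PM, or OI and PM in place of 1. Requiring a 2-fold change as well left 1 member with PM in either genotype, Ms4a4c, which was tested only through its PM libraries, where 3.02 and 3.19% of genes rose by as much. Members past 2-fold between genotypes with OI and PM numbered 2, Ms4a4a and Ms4a6b, with total count normalization, a filter of at least 10 counts, correction for exonic length, that correction with the replicate block, and the compared groups alone. With each library left out in turn, 3 to 4 members were called with PM in WT (10.6 to 30.7% of all genes), 0 to 1 in the OI interaction (0 to 4.68% of all genes), and 1 to 2 passed 2-fold between genotypes with OI and PM. The cause was not tested. The replicate block alone left 5 members called with PM in WT, 5 with PM in Acod1-/- cells, where Ms4a6c passed the threshold, and 6 and 5 with OI, beside 27.4, 25.5, 45.7 and 35.6% of all genes. Same-numbered libraries deviated together in some pairs of groups (correlation 0.83 for OI and PM with PM in WT) and oppositely in others (-0.51 for PM between genotypes), and with replicate numbers exchanged between the Acod1-/- libraries that received PM, 5 and 5 members were called with PM and 6 and 5 with OI, beside 36.2, 31.9, 50.4 and 39.35% of all genes. That exchange, and one of the Acod1-/- libraries with OI and PM that left 5 members called against vehicle (48.9% of all genes), was chosen after seeing the data.

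Low counts limit the precision for Ms4a4a and Ms4a4c, whose libraries with OI and PM held 7 to 69 and 10 to 21 reads. Without replicate 1 or 2 of the WT libraries with OI and PM, the genotype difference of Ms4a4a was 3.08 or 1.82 on the log2 scale in place of 2.29, and its OI interaction 1.39 or 0.14 in place of 0.60. Without replicate 1 of these libraries, 525 genes were called in the OI interaction in place of 0. With 2 libraries per group, 1 library decides many calls near the threshold.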

Other observations

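Ms4a8a, a member of the same cluster, stayed below the filter on low counts and was not tested. It had 45 and 47 reads in WT cells with PM (1.29 and 1.36 normalized CPM), against 8 and 18 with vehicle and 0 and 2 with OI and PM. In Acod1-/- cells it had 20 and 21 reads with PM (0.588 and 0.604 normalized CPM), against 12 and 10 with vehicle and 2 and 0 with OI and PM. Its level with PM was thus higher in WT cells, opposite in direction to the members with PM. Gm8369, which lies between Ms4a6c and Ms4a6b, had 12 to 27 reads in the libraries with PM, 22 to 40 with vehicle and 3 to 5 with OI and PM. Both genes were singled out after their values were seen.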
